A study of Homo sapiens with 6 samples.

Results

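The genes described here are 9 genes of iron uptake, storage and export, chosen by name and all found among the 29153 genes of the deposited table. They are TF, TFRC, TFR2, FTH1, FTL, SLC40A1, SLC11A2, HAMP and CP. They were measured by RNA sequencing in cells of the human liver cancer line HepG2, an established line of hepatocyte type. Cells received a lentivirus with a control short hairpin RNA (sh-NC, 3 libraries, called control here) or with a hairpin against the long noncoding RNA LINC01977 (sh-LINC01977, 3 libraries, called knockdown here), and virus was applied for 72 h in both groups. The sequenced knockdown libraries carry a single hairpin, which the library names number 3 and do not define further, and the study's methods add that infected cells were selected with puromycin. All 9 passed the filter for testing, a mean of 0.5 FPKM or more over the 6 libraries, as did 13452 genes in all.

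Iron circulates bound to transferrin, the plasma protein that hepatocytes make from TF. Transferrin receptor 1 (TFRC) carries it into cells, and the divalent metal transporter DMT1 (SLC11A2) moves iron out of the endosome. Iron that is not used is stored in ferritin, a shell of heavy (FTH1) and light (FTL) chains, and leaves the cell through ferroportin (SLC40A1), the only known iron exporter of vertebrates. Ceruloplasmin (CP) is the copper oxidase that readies exported iron for transferrin. Hepcidin (HAMP) is the liver hormone that binds ferroportin and has it degraded, and transferrin receptor 2 (TFR2) takes part in sensing transferrin iron for hepcidin control.

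Several of these transcripts share an iron-responsive element, a hairpin that is bound by the iron regulatory proteins when iron is scarce. In a 5′ UTR the bound protein blocks translation, and in the 3′ UTR of TFRC it shields the transcript from decay. The element was searched as a C, then 5 bases, then the loop CAGTGN, with the 5 bases before the loop pairing (G-U pairs allowed) with the 5 bases after it, on the transcript strand of the principal GENCODE 29 transcript of each gene. Matches are shown for FTH1, FTL, SLC40A1 and TFRC, since the element is known to act on these 4 transcripts, and capitals mark the 6 bases of the loop.
FTH1, 5′ UTR: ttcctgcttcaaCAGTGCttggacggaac
FTL, 5′ UTR: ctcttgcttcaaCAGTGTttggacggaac
SLC40A1, 5′ UTR: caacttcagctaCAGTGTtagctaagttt
TFRC, 3′ UTR, site 1: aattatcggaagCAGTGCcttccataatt
TFRC, 3′ UTR, site 2: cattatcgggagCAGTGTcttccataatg
TFRC, 3′ UTR, site 3: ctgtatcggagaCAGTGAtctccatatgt
TFRC, 3′ UTR, site 4: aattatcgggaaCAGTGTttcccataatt
In GRCh38 the FTH1 match lies at chr11:61967574-61967602 on the minus strand, the FTL match at chr19:48965335-48965363 on the plus strand and the SLC40A1 match at chr2:189580661-189580689 on the minus strand, each in exon 1. The 4 TFRC matches lie in exon 19 on the minus strand, the first at chr3:196050979-196051007 and the fourth at chr3:196050463-196050491. FTH1 and FTL carried the same 5 bases on each side of the loop. Among all protein-coding genes, 21 of 18196 5′ UTRs (0.115%) and 104 of 18789 3′ UTRs (0.554%) held a match. TF also held 1 match, in a 3′ UTR stretch that lies past the end of TF in the deposited table, and TFR2, SLC11A2, HAMP and CP held 0 in the transcripts searched. A match describes the letters and not binding, and other forms of the element were not searched.

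**Figure D1:**
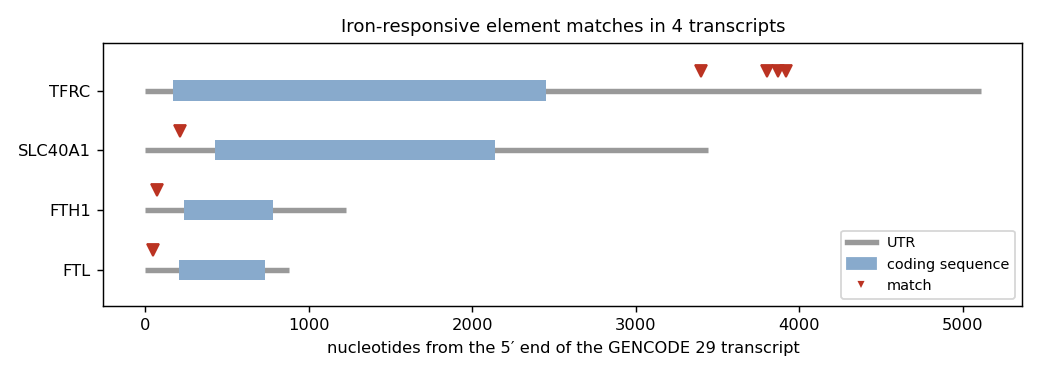
Position of the iron-responsive element matches (triangles) along the GENCODE 29 transcripts of TFRC, SLC40A1, FTH1 and FTL, in nucleotides from the 5′ end, with the coding sequence as a block and the UTRs as lines. The 4 matches of TFRC sit in its 3′ UTR, and the single match of each of the other 3 transcripts sits in the 5′ UTR.

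The libraries held between 49929024 and 60441515 counts, and Pearson correlations of log2 CPM were 0.978 to 0.981 within groups and 0.969 to 0.973 across them. LINC01977 itself had 0 to 16 counts in every library, so its reduction could not be read at this depth (log2 fold change -2.12, adjusted p = 0.580 from edgeR without the filter), and groups rest on the labels. Of the 8 hepatocyte and HepG2 markers looked at, all passed the filter, and ALB (albumin) and AFP (alpha-fetoprotein) had mean FPKM of 1456 and 1283 in sh-NC cells. The summed FPKM of the 4 macrophage markers found was 0.614 to 1.32 in control cells and 0.689 to 0.846 in knockdown cells, and that of the 5 mesenchymal markers found was 3.04 to 4.21 and 5.48 to 7.67. The labels do not say whether the libraries of a group came from separate cultures, so the spread between them may be technical.

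FPKM, which are read counts scaled to transcript length and library total, were used to compare levels between genes. The lengths used for the scaling are not given, and the order and ratios in FPKM depend on them. In sh-NC cells the order was FTL, FTH1, TF, TFRC, HAMP, CP, SLC40A1, SLC11A2 and TFR2. FTL stood at 8836 ± 795 FPKM (SD, n = 3), which was 21.0 times FTH1 at 420 ± 32.4. It alone took 0.890% to 1.05% of all counts in these libraries. In counts, which are not scaled to length, the ratio of FTL to FTH1 was 9.18 ± 1.59 in sh-NC libraries (SD, n = 3). FTH1 and TF overlapped in range, as did SLC40A1 and SLC11A2, while HAMP and CP were apart by a margin far below their SD. In sh-LINC01977 cells the order of the means was the same, but FTH1 and TF no longer overlapped, and neither did SLC40A1 and SLC11A2, whereas HAMP overlapped CP and CP overlapped SLC40A1. The level of FTH1 is uncertain, since 40.4% of the 50-base windows of its transcript occur word for word in transcripts of 15 other genes, among them its processed copies, against 18.3% for FTL and 0% for TFRC, TFR2, SLC40A1, SLC11A2 and HAMP. The 12 listed copies of FTH1 held a sum of 510 to 1096 counts, at most 2.03% of the counts of FTH1. How reads with several matches were counted is not stated.

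**Figure D2:**
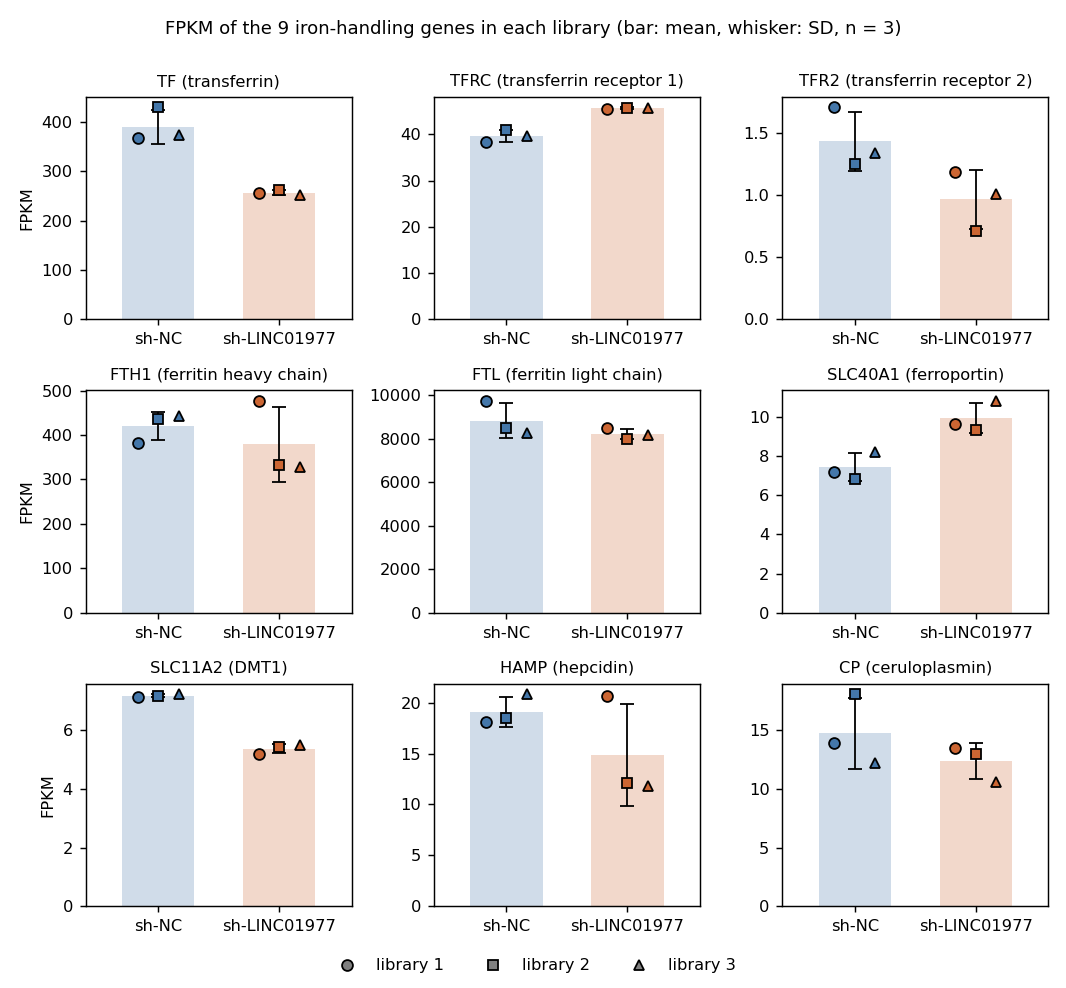
FPKM (vertical axis, from 0) of the 9 genes in each library, with the mean as a bar and the SD as a whisker (n = 3) and a separate marker for each library number. TF and SLC11A2 lie lower and TFRC and SLC40A1 higher in every sh-LINC01977 library than in any sh-NC library, while sh-LINC01977 library 1 stands with the sh-NC libraries for HAMP and above them for FTH1.

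Knockdown and control cells were then compared gene by gene. Among the 9 genes, transferrin and DMT1 transcripts were lower and transferrin receptor 1 and ferroportin transcripts higher in sh-LINC01977 cells, while both ferritin chains, hepcidin, ceruloplasmin and TFR2 did not pass the test. Counts were tested with the quasi-likelihood F test of edgeR over all 13452 genes. With 0.05 as the limit for the adjusted p, 2 of these 9 genes rose, against 7.05% of all genes tested, and 2 fell, against 8.07%. Together 4 of 9 (44.4%) were called, beside 15.1% of all tested genes. The members were chosen with earlier results of these data known, so this share is only a description. With scaling by library totals the split over all genes changed from 948 higher and 1085 lower to 1455 and 768. In that fit TF and SLC11A2 stayed lower and TFRC and SLC40A1 higher. Over 17 alternative fits, those with 1 library left out among them, TF and SLC11A2 were called lower in every one. TFRC lost its call in 9 of them and SLC40A1 in 6. None of the 9 reached the study's thresholds of a 2-fold change with an unadjusted p of 0.05, which 1.55% of tested genes did as higher and 1.05% as lower (2.60% together). The groups did not overlap in CPM, which are counts scaled to the TMM-adjusted library total, for 6 of the 9, beside 37.1% of tested genes. Single genes were also compared with a two-sided exact permutation test, which cannot go below 0.1 with 3 libraries a side. The median log2 fold change of the 9 was -0.31, beside -0.0010 over all tested genes. This median is the value of CP, which did not pass the test.

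**Figure D3:**
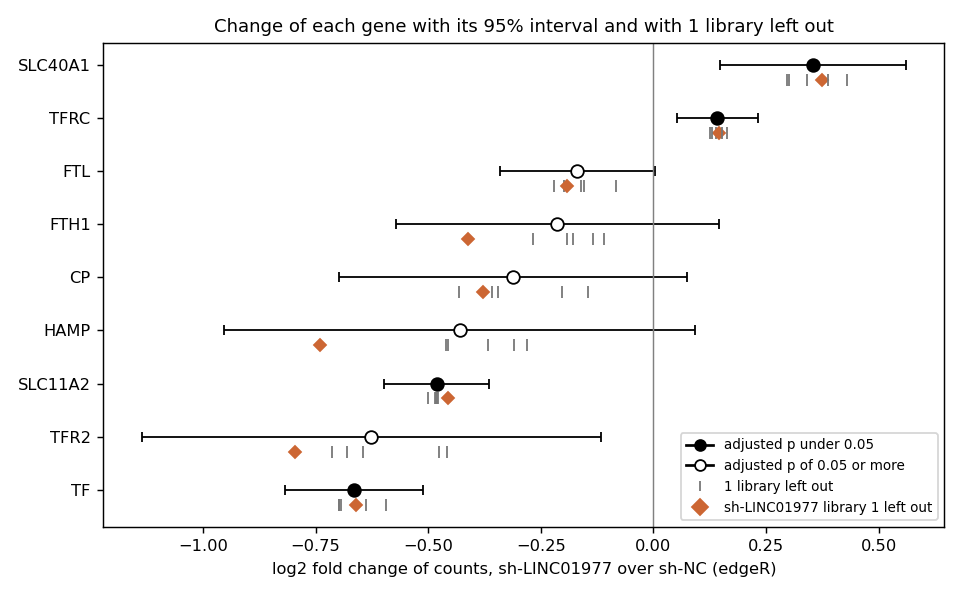
Log2 fold change of counts (sh-LINC01977 over sh-NC, edgeR) of the 9 genes with 95% intervals (circles, filled where the adjusted p was under 0.05), and below each the values with 1 library left out. All values of a gene stay on the same side of 0, and leaving out sh-LINC01977 library 1 moves FTH1 to -0.41 and HAMP to -0.74.

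TF (ENSG00000091513, chromosome 3, 133745956 to 133779006 on the plus strand), which encodes transferrin, had the smallest p among the 9. Control cells had 366, 429 and 373 FPKM, and knockdown cells had 256, 263 and 251 FPKM. Every knockdown library was below every control library, and the spread within the knockdown group was small beside the gap. The log2 fold change was -0.66 (standard error 0.0643, 95% interval -0.82 to -0.51), a 1.59-fold decrease (adjusted p = 0.00176 in edgeR; exact permutation p = 0.1). In such bulk samples fewer cells with a transcript and less of it per cell cannot be told apart. TF overlaps AC080128.1 on the same strand, which had 549 to 1412 counts. Other liver genes were also lower. Of the 8 hepatocyte and HepG2 markers, 6 were lower at an adjusted p under 0.05 in edgeR, among them ALB with a log2 fold change of -1.09 and the liver transcription factor HNF4A with -0.55, beside 8.07% of all tested genes. The secreted proteins APOB (0.0074) and TTR (-0.17) were not called. The summed FPKM of all 8 markers was 4078 to 4440 in control and 2872 to 2932 in knockdown cells. The part of this shift in the change of TF was not tested.

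TFRC (ENSG00000072274, chromosome 3, 196027183 to 196082189 on the minus strand) encodes the receptor that takes up loaded transferrin. It had 38.2, 40.9 and 39.5 FPKM in sh-NC cells and 45.4, 45.7 and 45.7 FPKM in sh-LINC01977 cells. The groups did not overlap, though they lay close together. This gave a log2 fold change of 0.14 (standard error 0.0375, 95% interval 0.05 to 0.23), a 1.10-fold increase at the edge of the threshold (adjusted p = 0.0496 in edgeR; exact permutation p = 0.1). The call was lost with any 1 of the 6 libraries left out, where the adjusted p was 0.0682 to 0.137 at a log2 fold change of 0.13 to 0.16.

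TFR2 (ENSG00000106327, chromosome 7, 100620416 to 100642779 on the minus strand), the receptor of the hepcidin pathway, was the least abundant of the 9. It stood at 1.71, 1.26 and 1.34 FPKM in control and at 1.19, 0.714 and 1.01 FPKM in knockdown cells. All knockdown values were below the controls, but the highest knockdown and lowest control library nearly met. Its log2 fold change of -0.63 was similar in size to that of TF but had a standard error of 0.213 (95% interval -1.14 to -0.12) and did not pass adjustment (adjusted p = 0.101 in edgeR; exact permutation p = 0.1). The counts behind it were 275 to 604 per library. The ratio of TFRC to TFR2 in FPKM was 28.1 ± 5.22 in sh-NC and 49.2 ± 13.3 in sh-LINC01977 libraries (SD, n = 3 each). Its groups could not overlap, since every knockdown library was higher in TFRC and lower in TFR2 than every control. The ratio is therefore no separate result.

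FTH1 (ENSG00000167996, chromosome 11, 61959718 to 61967660 on the minus strand) encodes the ferritin chain with ferroxidase activity. It stood at 383, 435 and 443 FPKM in control and at 477, 332 and 328 FPKM in knockdown cells. The first knockdown library was thus the highest of all 6 and the other two the lowest. On the log2 scale the difference was -0.21 (95% interval -0.57 to 0.15, adjusted p = 0.385 in edgeR; exact permutation p = 0.4). FTH1 overlaps BEST1 on the other strand, which had 2797 to 5145 counts, and whether counting used strand is not stated. With the counts of its 12 listed copies added, the log2 fold change was -0.22.

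FTL (ENSG00000087086, chromosome 19, 48965301 to 48966878 on the plus strand) encodes the light chain, which helps the iron core form and lacks the ferroxidase centre. It stood at 9741, 8516 and 8249 FPKM in control and at 8497, 8005 and 8163 FPKM in knockdown cells. The groups overlapped slightly in FPKM but not in CPM, where the first knockdown library lay just below the third control. On the log2 scale the difference was -0.17 (95% interval -0.34 to 0.0029, adjusted p = 0.170 in edgeR; exact permutation p = 0.1). The ratio of FTL to FTH1 in FPKM was 21.2 ± 3.68 in sh-NC and 22.3 ± 3.88 in sh-LINC01977 libraries (SD, n = 3 each). It ran from 17.8 to 25.4 over the 6 libraries, and its groups overlapped.

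SLC11A2 (ENSG00000110911, chromosome 12, 50979401 to 51028566 on the minus strand), which encodes DMT1, varied little within groups. It stood at 7.12, 7.17 and 7.21 FPKM in control and at 5.19, 5.43 and 5.48 FPKM in knockdown cells. The gap between the groups was many times the spread within either. The log2 fold change was -0.48 (standard error 0.0487, 95% interval -0.60 to -0.36), a 1.40-fold decrease (adjusted p = 0.00197 in edgeR; exact permutation p = 0.1). The gene makes transcripts with and without an iron-responsive element, which a count per gene cannot tell apart.

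SLC40A1 (ENSG00000138449, chromosome 2, 189560579 to 189583758 on the minus strand), which encodes ferroportin, went the other way. It stood at 7.20, 6.85 and 8.23 FPKM in control and at 9.65, 9.34 and 10.8 FPKM in knockdown cells. All knockdown values were above all controls. This gave a log2 fold change of 0.35 (standard error 0.0867, 95% interval 0.15 to 0.56), a 1.28-fold increase (adjusted p = 0.0389 in edgeR; exact permutation p = 0.1). The call held without the third sh-NC library (adjusted p = 0.0323) and was lost with any other library left out, where the adjusted p was at most 0.113.

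HAMP (ENSG00000105697, chromosome 19, 35280716 to 35285143 on the plus strand), the hepcidin gene, varied most between the knockdown libraries. It stood at 18.1, 18.5 and 20.8 FPKM in control and at 20.6, 12.1 and 11.8 FPKM in knockdown cells. The first knockdown library lay within the control range and the other two well below it. The log2 fold change was -0.43 (95% interval -0.95 to 0.09, adjusted p = 0.238 in edgeR; exact permutation p = 0.3).

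CP (ENSG00000047457, chromosome 3, 149162410 to 149222055 on the minus strand), the ceruloplasmin gene, had 13.9, 18.0 and 12.2 FPKM in control and 13.5, 13.0 and 10.6 FPKM in knockdown cells. The groups overlapped, with the second control library far above the rest. The log2 fold change was -0.31 (95% interval -0.70 to 0.07, adjusted p = 0.244 in edgeR; exact permutation p = 0.3). Without the second control library it was -0.14 (adjusted p = 0.530 in edgeR). CP overlaps HPS3 on the other strand, which had 1834 to 2500 counts.

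The first sh-LINC01977 library decided the result for FTH1 and HAMP. Without it, FTH1 had a log2 fold change of -0.41 (adjusted p = 0.0222 in edgeR) and HAMP one of -0.74 (adjusted p = 0.00906 in edgeR). In that fit 4 members were called lower and 0 higher, beside 738 lower and 582 higher of all 13452 tested genes. The first sh-LINC01977 library had 54187661 counts, inside the range of the others, and its correlation with the other two knockdown libraries was 0.981 and 0.980. The ratio of TFRC to FTH1 in FPKM was 0.0953 in it and 0.138 and 0.139 in the other two, against 0.0893 to 0.0998 in sh-NC libraries. Why it differed in these genes was not tested.

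The transcripts with an iron-responsive element in the 5′ UTR did not move as a group. SLC40A1 was higher, while FTH1 and FTL had negative values that did not pass the test. TFRC, with its elements in the 3′ UTR, was also higher. Ferritin and ferroportin are known to be controlled at translation through these elements as well, which transcript counts do not measure.

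Other genes of iron and haem handling were read from lists sorted by role, 83 genes in all, of which 69 passed the filter. In edgeR, 4 rose and 14 fell at an adjusted p under 0.05 (26.1%, beside 15.1% of all tested genes), and the median log2 fold change was -0.048. The lists too were chosen with earlier results of these data known, so their shares only describe them. Of the 17 tested genes of hepcidin control, FURIN (0.45), a convertase that cuts prohepcidin, was higher. TMPRSS6 (-0.58), the protease that restrains hepcidin, and STAT3 (-0.28), which carries the interleukin 6 signal to HAMP, were lower. The other 14, among them the BMP receptors, the SMAD genes and the BMP target ID1 (0.15, adjusted p = 0.127 in edgeR), did not pass the test. The 17.6% called in this list was close to the 15.1% of all tested genes. SOCS3, a target of STAT3, and ATOH8, a target of BMP signalling, were singled out after their values were seen and lay below the filter. SOCS3 had 0.149 ± 0.0888 FPKM in sh-NC and 0.630 ± 0.119 FPKM in sh-LINC01977 cells, and ATOH8 had 0.184 ± 0.0773 and 0.487 ± 0.0985 FPKM (SD, n = 3 each). In the fit without a filter the adjusted p in edgeR was 0.0396 for SOCS3 and 0.0640 for ATOH8. Because both were picked by their values, these p-values are no support for a difference.

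Of the 7 tested genes that encode iron regulatory proteins, their ligase or other transcripts known for the element, IREB2 alone was called. That is 14.3%, beside 15.1% of all tested genes. IREB2, which encodes iron regulatory protein 2, had a log2 fold change of -0.38 (adjusted p = 0.0123 in edgeR), and its partner ACO1 one of -0.13 (adjusted p = 0.193). Of the 3 genes of iron chaperones and ferritin turnover, PCBP2 (-0.31), which delivers iron to ferritin, and NCOA4 (-0.29), the receptor that takes ferritin to the lysosome, were lower. PCBP1 was not called, at -0.015. This short list of 3 thus had 66.7% called, beside 15.1% of all tested genes. Among 5 tested genes of other import, reduction and oxidation, the zinc and iron importer SLC39A14 was lower (-0.41) and LCN2, which encodes the siderophore-binding lipocalin 2, was higher (1.21). Together they are 40% of this list, beside 15.1% of all tested genes. LCN2 passed the filter only through the knockdown group, where it is high, so its call is no support for a difference. It is still among the 4 genes of the lists counted as higher. It stood at 0.357 ± 0.0949 and 0.872 ± 0.180 FPKM (SD, n = 3 each).

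The haem genes that were called were mostly lower. Of the 12 tested genes of haem uptake, breakdown and export, 4 were lower and 1 higher (41.7% together). Over all tested genes 8.07% were lower and 7.05% higher. HMOX1, the inducible haem oxygenase that frees iron from haem, went from 23.5 ± 0.208 to 13.7 ± 0.689 FPKM (SD, n = 3 each), which is -0.84 on the log2 scale (adjusted p = 6.92e-04 in edgeR). The plasma scavengers HP (haptoglobin, -0.95) and HPX (haemopexin, -0.78) and the haem exporter FLVCR1 (-0.33) were also lower, while the endosomal haem transporter SLC48A1 (0.50) was higher. In haem synthesis, ALAS1 (-0.21), the first and rate-limiting enzyme in liver, and ALAD (-0.39), the enzyme after it, were lower, and the other 6 tested genes did not pass. The called share there was 25%, beside 15.1% of all tested genes. Of 17 tested genes of mitochondrial iron and iron-sulfur assembly, GLRX5 (-0.31) and ISCA1 (-0.30), which act in cluster transfer, were lower. In this list 17.6% were called in either direction, close to the 15.1% of all tested genes.

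**Figure D4:**
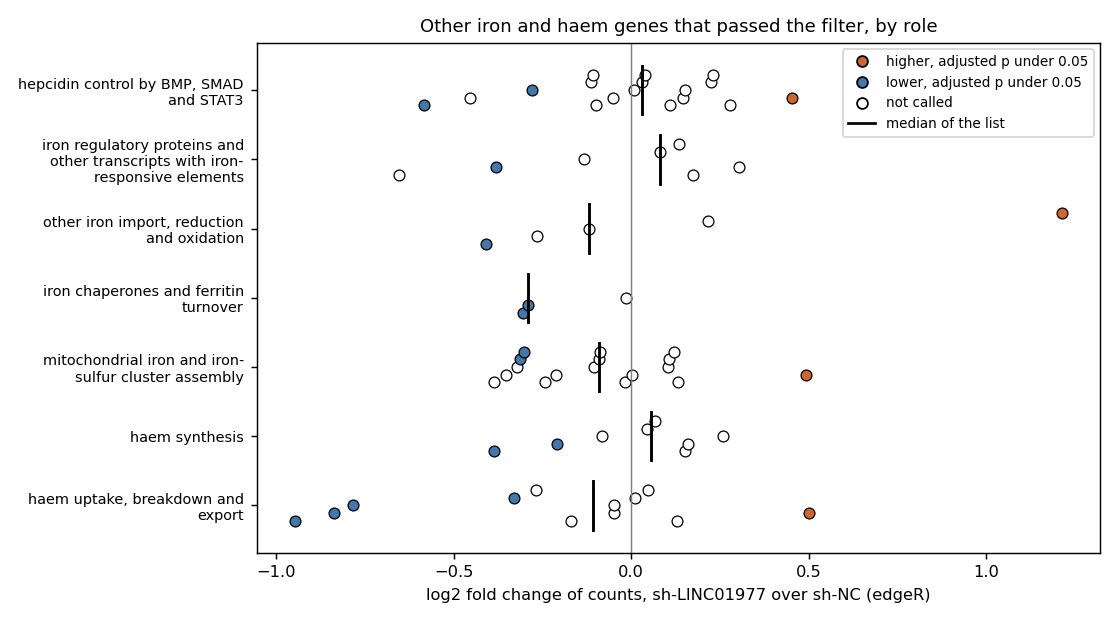
Log2 fold change of counts (sh-LINC01977 over sh-NC, edgeR) of the 69 tested iron and haem genes, in rows by role, with the median of each row as a bar and coloured points for an adjusted p under 0.05. The 14 lower and 4 higher calls are spread over all 7 rows, and HP, HMOX1 and HPX have the lowest values.

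TF had the smallest p of the 9, and its log2 CPM was compared with that of 11568 other tested genes that averaged 1 FPKM or more. The 5 most alike over the 6 libraries were TLE1, SLF2, QDPR, ITIH3 and ABCF2, with Pearson r of 0.996 to 0.997. ITIH3 encodes another liver plasma protein, an inter-alpha-trypsin inhibitor heavy chain, and had a log2 fold change of -0.89. As 915 genes had an r above 0.9 with only 6 libraries in 2 groups, likeness of this degree was common.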

How the data were processed

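Total RNA (TRIzol) from 3 sh-NC and 3 sh-LINC01977 samples was read on an Illumina HiSeq machine. The authors deposited 1 table with counts and FPKM per gene. The deposited counts are whole numbers without normalization (49929024 to 60441515 per library), while the authors scaled the deposited FPKM to length and library total. The submitters' processing notes name bcl2fastq 2.0, HISAT2, StringTie, DESeq2, limma and hg38, without roles. Counting tool, strand setting and annotation are not given in the sources used here. All rows name a gene. Counts of 4 occurred in 8101 gene and library pairs, against 2780 for 3 and 1758 for 5, so counts may not all stand for single fragments.

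Counts were tested with edgeR 4.0.16 in R 4.3.3 (TMM scaling, quasi-likelihood F test, group as the only term, Benjamini-Hochberg adjustment) over the 13452 genes that averaged 0.5 FPKM or more. Standard errors are the log2 fold change over the square root of F. For LINC01977, SOCS3 and ATOH8 the fit without this filter was used. The code was tested on simulated data. The members and lists were chosen with earlier results of these data known. All members are named, and of the lists the genes called at an adjusted p under 0.05 (except 1, counted but not reported here), with examples that were not called. For the member with the smallest p, the 5 most correlated genes are named. SOCS3, ATOH8, ID1, ACO1, PCBP1 and SLC7A11 were named after their values were seen. Of 83 other iron and haem genes, 81 were found by symbol or older symbol. Sequences are from the GENCODE 29 transcripts (GRCh38), in which 29051 of 29153 identifiers were found and 8 of the 9 members had the same coordinates, TF being the exception. Alternatives were DESeq2 1.42.0, limma 3.58.1 on log2(FPKM + 0.1), (FPKM + 1) and (FPKM + 0.01), other scalings and filters, counts divided by 4, a replicate block, summed FTH1 and FTL copies, and each library left out.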

Additional observations from a re-analysis of the deposited data

How the results depend on the processing

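All 9 members kept their direction in all 154 alternative values, of which 18 lay on the other side of the threshold. The 2 higher members became 1 with DESeq2 size factors, 1 with the replicate block, 0 without a filter and 0 to 1 with 1 library left out, and the 2 lower ones 2 to 4. Over all tested genes, 1 library left out gave 549 to 669 higher and 627 to 738 lower. TFRC (0.14, adjusted p = 0.0496) was not called with DESeq2 size factors (0.14), without a filter (0.13), with the replicate block (0.14) or with any 1 library left out (0.13 to 0.16), and its adjusted p over all alternatives ran from 0.0145 to 0.151. SLC40A1 was not called without a filter (0.34, adjusted p = 0.0904), and ran from 0.30 to 0.43 with 1 library left out. TFR2 was called with DESeq2 alone (-0.63, adjusted p = 0.0331). With 1 library left out, FTH1 ran from -0.41 to -0.11 and HAMP from -0.74 to -0.28, both called only without the first sh-LINC01977 library. Without a filter more genes were adjusted for, and with a library left out fewer samples were tested. Why calls changed between the alternatives was not tested. As the ratio of group means, TFRC was 1.15 and SLC11A2 0.748 in FPKM, against 1.10 and 0.717 in CPM.

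The wider lists, with 4 higher and 14 lower, gave 7 and 8 with library totals and 1 and 9 with the replicate block. With 1 library left out they gave 1 to 3 and 6 to 11. For the lists limma gave 7 lower on log2(FPKM + 0.1), 7 on log2(FPKM + 1) and 7 on log2(FPKM + 0.01). Over all tested genes limma gave 1269, 1285 and 1266 higher and 729, 734 and 722 lower, against 948 and 1085 in the main fit. Same-numbered libraries did not deviate together (r from -0.029 to 0.055 over the 3 pairs). This cannot show whether samples were paired by number, which the labels do not say. The replicate block gave 636 higher and 754 lower over all genes, against 948 and 1085. Scaling to totals without FTL and mitochondrial genes, chosen after seeing the data, kept the 4 member calls. With counts divided by 4, TFR2 stayed at -0.63 (adjusted p = 0.0990), and with 1 library left out it ran from -0.80 to -0.46, CP from -0.43 to -0.14 and FTL from -0.22 to -0.083.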

Other observations

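Iron also drives ferroptosis, a form of cell death by lipid peroxidation, and 7 of the 9 members carry that KEGG term in the deposited annotation. The remaining tested genes with the term, 20 in number and chosen after the data were seen, held 2 that were higher and 4 that were lower at an adjusted p under 0.05 in edgeR, with a median log2 fold change of -0.068. Over all tested genes 7.05% were higher and 8.07% lower, with a median of -0.0010. GPX4, the peroxidase that removes lipid peroxides, was lower (-0.32), as was SLC3A2 (-0.39), the partner of the cystine carrier, while the carrier SLC7A11 itself had a value of -0.023 and did not pass the test. SAT1, a polyamine acetyltransferase, was higher (0.67) and its relative SAT2 lower (-0.50). GSS, which completes glutathione synthesis, was higher (0.25), and VDAC3, a channel of the outer mitochondrial membrane, had the lowest value (-1.24).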
